A study of Mus musculus with 32 samples.

Results

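Kidney RNA of Nox4 knockout mice was set against RNA of a wild-type pool on 8 two-colour cDNA arrays, which are 8 of the 32 arrays of the series. The 8 arrays were chosen by their tissue label and come from 4 knockout animals, each hybridised on 2 arrays with the dyes exchanged: the knockout RNA carried Cy5 on 1 array of an animal and Cy3 on the other. The knockout animals were male C57BL/6 mice with the Nox4 mutation given as -/-, aged 17 weeks, and untreated as far as the labels say. The common reference was RNA of male Nox4 wild-type mice of the same strain and age, pooled from 4 animals by the design text and from 6 by the labelling protocol. The same 4 knockout animals also gave brain, muscle and pancreas.

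NOX4 is a NADPH oxidase, an enzyme of membranes that passes electrons from NADPH to oxygen. Unlike its relatives it releases mainly hydrogen peroxide and is active without cytosolic activator subunits, needing only the membrane partner p22phox, the product of Cyba. It was first described as a renal oxidase and is abundant in the tubule epithelium, above all in the proximal tubule, where peroxide acts on phosphatases, transcription factors and ion transport.

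Each value is a log2 ratio per probe, so 1 unit is a 2-fold difference, and each animal enters with the mean of its 2 arrays. The ratio likely runs knockout over pool, as the design text and the channel of each sample's own RNA have it; should it run the other way, every higher reads as lower. A ratio holds no transcript level, so the kidney label could not be checked against kidney markers. Since each kidney was measured whole, fewer cells of a type and less RNA per cell cannot be told apart. No probe is named Nox4 (0 of 20794), so the deleted gene gives no check of the labels either. All animals are set against the same pool, which counts as 1 control sample, and its own deviation is in none of the errors below.

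The kidney arrays carried 20621 to 20684 values. The spread between animals (median SD 0.0988 on the log2 scale) was below that in brain (0.127), muscle (0.173) and pancreas (0.216). Differences between the dye orientations were larger than the mean ratios in most genes. In 67.9% of genes the dye effect, which is 50% of the difference between the orientations, exceeded the mean in size. In 1030 genes (6.18%) the sign followed the dye on all 8 arrays. The arrays of an animal correlated across probes at r from −0.60 to 0.07, whereas arrays of different animals with the same dye correlated at r from 0.05 to 0.52. Of the values, 252 lay beyond 8 in size, 118 of them positive, all where Cy5 labelled the knockout, and 134 of them negative, all where Cy3 did; these were taken as missing. Signs were used as deposited. Turning the signs of the Cy3 arrays reversed 55 of the 129 genes named from here on. It left 37 more with the same sign at under 50% of their size. Most of these genes were chosen on the deposited signs, which makes such losses likely. Reversals were not counted over all genes. Where all 8 arrays gave a value, the dye effect is also the mean with the Cy3 arrays turned. So in about 67.9% of all genes the turned mean was larger in size than the deposited mean. The 1030 genes above would keep 1 sign on all 8 arrays if turned, against 243 that did as deposited. Every direction and order below therefore holds for the signs as deposited.

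Across 16797 genes with at least 3 animals, 8929 of them with a symbol, kidney ratios stayed close to 0. The median was 0.003, 8651 genes (51.5%) lay above 0 and 8144 (48.5%) below, and 98.1% lay within 0.25 of 0. Limma called 1 gene at a Benjamini-Hochberg adjusted p under 0.05 (0.00595% of those tested). At an unadjusted p under 0.05 there were 1585 (9.44%), of which 727 lay higher (4.33%) and 858 lower (5.11%). All 4 animals lay above 0 in 1678 genes (10.1%) and below 0 in 1638 (9.83%), of 16658 measured on all 8 arrays. The groups of genes described below are to be read against these shares. Members of a gene list are named mainly for the smallest unadjusted p values, so they need not be its highest or lowest.

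The called gene was Stk32b, which encodes a serine/threonine kinase of the YANK family. It was higher in the knockout kidneys at a mean log2 ratio of 1.19 ± 0.06 (SE, n = 3), or 2.28-fold (limma, adjusted p = 0.0389). Animal 1 was at 1.33, animal 2 at 1.10 and animal 4 at 1.14, and animal 3 had only 1 array with a value and was left out. The animals were close together, but their arrays were not. With the knockout in Cy5 the ratios were 2.61, 2.43 and 0.54 in animals 1, 2 and 4, and with the knockout in Cy3 they were 0.04, −0.23 and 1.74. The array left out, of animal 3, read 0.04. With that array included the mean was 0.90 ± 0.21 (limma, adjusted p = 0.528), so the call was lost. With values beyond 8 kept, the mean stayed at 1.19 ± 0.06 and the adjusted p was 0.127.

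The largest ratios of single genes were no more even between dyes. Of the 19 genes with a symbol and a mean beyond 0.5, 11 higher and 8 lower, 0 had the same sign on every array that measured them and 9 were at an unadjusted p under 0.05. Dtx1, Sertad1 and Acrv1, chosen here after their values were seen, and Pln, from the calcium list, show the range. Dtx1, a ubiquitin ligase that regulates Notch, was at 1.21 ± 0.30 (SE, n = 3), with 5 of 7 arrays above 0 and the highest at 2.76. Animal 4 had only 1 array with a value, at −0.84, which is among the 7 arrays but not in the mean. Pln, phospholamban, the inhibitor of the SERCA calcium pump of the sarcoplasmic reticulum, was at 0.60 ± 0.13 (SE, n = 4). Its animals were at 1.04, 0.51, 0.70 and 0.17, all above 0, while its 8 arrays ran from −1.24 to 2.64 and 5 lay above 0. Sertad1, a transcriptional regulator, was at −0.91 ± 0.35, with animal 1 at −2.44 and the others between −0.53 and −0.17. Acrv1, an acrosomal protein gene, was at −0.73 ± 0.11, with a mean of −1.57 on the Cy5 arrays and 0.12 on the Cy3 arrays.

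**Figure D1:**
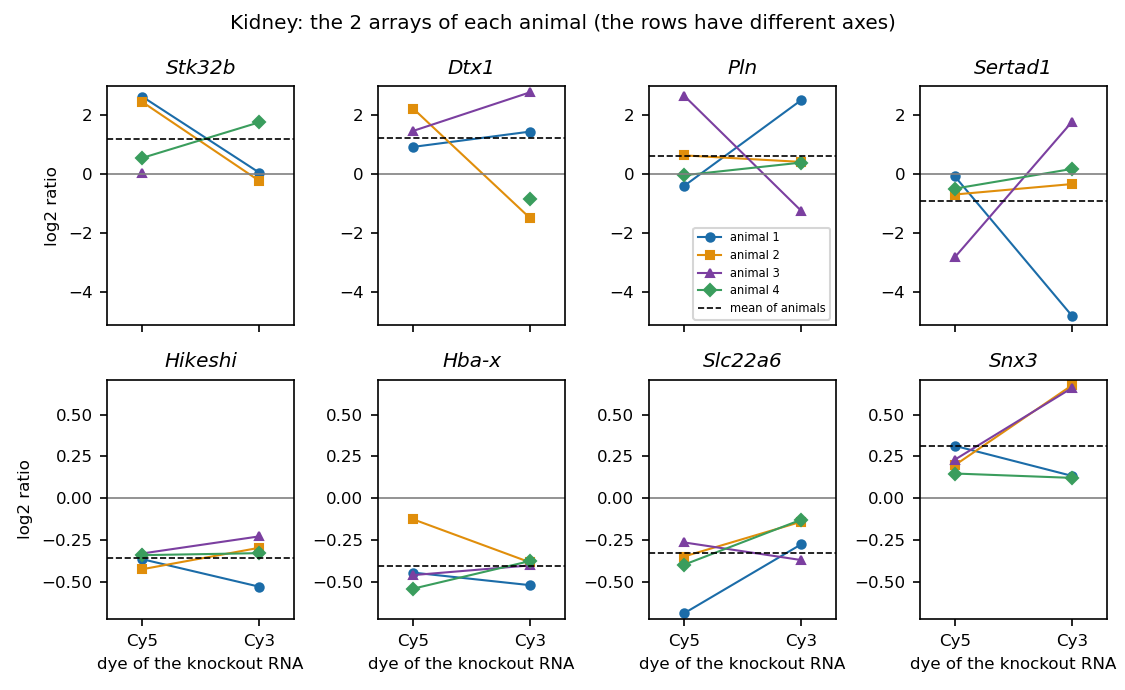
Log2 ratio (vertical axis) on the array with the knockout in Cy5 and on the array with the knockout in Cy3 (horizontal axis), joined for each of the 4 animals, with the mean over animals dashed. Stk32b, Dtx1, Pln and Sertad1 (upper row) have large means made of arrays that cross 0, whereas every array of Hikeshi, Hba-x and Slc22a6 lies below 0 and every array of Snx3 above 0 (lower row, on a narrower axis).

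A second set of genes had smaller ratios that kept their sign on all 8 arrays, whichever dye the knockout carried. This choice itself requires the deposited signs, since such genes shrink toward 0 or change sign when the Cy3 arrays are turned. Of 16658 genes measured on all 8, 93 (0.558%) lay above 0 on every array and 150 (0.9%) below. The 14 with a symbol and the largest means in each direction are described next; their sign on the arrays chose them, so it is no evidence of change, and 0 of them passed adjustment over all genes. A fit of the 8 single arrays with a dye term called 3 of them, Hikeshi, Hba-x and Cmss1 (limma, adjusted p = 0.0242 for each), at a correlation of −0.286 between the arrays of an animal, and 0 genes without that correlation.

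Hikeshi, which carries the chaperone HSP70 into the nucleus under heat stress, was at −0.35 ± 0.04 (SE, n = 4; limma, adjusted p = 0.283). Its animals were at −0.45, −0.36, −0.28 and −0.33, and its arrays ran from −0.53 to −0.23. The Cy5 arrays averaged −0.36 and the Cy3 arrays −0.34, so the dyes gave nearly the same value. With the Cy3 arrays turned, Hikeshi was at −0.0097. In the RefSeq order of protein-coding genes Hikeshi is 10 genes away from Nox4. Of the 27 genes measured within 40 protein-coding genes on either side of Nox4, 12 were above 0 and 15 below, the median was −0.01, and 3 were at an unadjusted p under 0.05 (1 higher, 2 lower). With the signs as deposited Hikeshi was the lowest of the 27, and the next lowest was at −0.10, Arnt2; with the Cy3 arrays turned Hikeshi was the 11th from the lowest.

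Hba-x, an embryonic alpha-type globin, was at −0.40 ± 0.05 (SE, n = 4; limma, adjusted p = 0.283), with animals at −0.48, −0.25, −0.43 and −0.46. The means were −0.39 with the knockout in Cy5 and −0.42 in Cy3. The adult globin Hba-a1, measured by 6 probes, was at −0.02 ± 0.04, with animals between −0.08 and 0.05. Globin-family cDNAs share sequence, and how far the Hba-x probe reads other globins was not tested. Cmss1, whose name refers to the small ribosomal subunit but which is not in the ribosomal protein list, was at −0.37 ± 0.05 (SE, n = 4; limma, adjusted p = 0.283). Its animals were at −0.32, −0.45, −0.27 and −0.45, and its 2 probes gave −0.53 and −0.21. With the Cy3 arrays turned Cmss1 was at −0.17 and Hba-x at 0.014.

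Below the pool on all 8 arrays were also genes of transport, transcription and lipid handling. Slc22a6, the organic anion transporter of the proximal tubule, was at −0.33 ± 0.05 and is taken up with its family below. Epas1, which encodes the oxygen-regulated transcription factor HIF-2 alpha, was at −0.29 ± 0.08, with animals at −0.45, −0.09, −0.13 and −0.50. Cenpb, a centromere-binding protein gene, was at −0.32 ± 0.10, and animal 3 was close to 0 at −0.03. Mcl1, which encodes a survival factor of the BCL2 family, was at −0.36 ± 0.11. Animal 2 of Mcl1 was at −0.81 and the others between −0.24 and −0.18, and its 2 probes gave −0.97 and −0.04. The size of its mean therefore rests mainly on 1 animal and 1 probe, while all 4 animals lay below 0. The 2 probes did not both give a value on every array, so its arrays do not all average the same probes.

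Echdc3, a gene of the enoyl-CoA hydratase family, was the most even of the lower genes. It was at −0.24 ± 0.04 (SE, n = 4; limma, adjusted p = 0.348), with animals at −0.28, −0.20, −0.25 and −0.24. Myo1e, an unconventional myosin of podocyte foot processes, was at −0.24 ± 0.05, with animals from −0.34 to −0.10 and the same value of −0.24 from both probes. Adcy2, an adenylyl cyclase gene, was at −0.24 ± 0.06, and Fcho1, which helps to start clathrin-coated pits, at −0.26 ± 0.05. Drg2, a GTPase gene, was at −0.27 ± 0.09, with animal 1 at −0.63 and the others from −0.19 to −0.11. Pnliprp2, a pancreatic lipase-related gene, was at −0.34 ± 0.11, again with animal 1 lowest at −0.80 and the others from −0.24 to −0.14. Fam205c was at −0.29 ± 0.07, with animals at −0.42, −0.09, −0.16 and −0.485, each close to the same animal of Epas1. In muscle its animals ran from 0.07 to 0.40 and those of Epas1 from 0.08 to 0.47. In brain the genes were less alike, with animal 4 at 0.06 for Fam205c and −0.17 for Epas1. Whether the probes of Fam205c and Epas1 read the same transcript was not tested.

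Among the 14 higher genes, several act in membrane traffic and ubiquitin transfer, which is a description of names and was not tested. Snx3, a sorting nexin that returns cargo from endosomes, was at 0.31 ± 0.06 (SE, n = 4; limma, adjusted p = 0.443). Its animals were at 0.22, 0.44, 0.44 and 0.14, with no array under 0.12. Gosr1, a SNARE of the Golgi, was at 0.22 ± 0.05, with animals from 0.06 to 0.33. Kif1b, a kinesin that carries mitochondria and vesicles, was at 0.23 ± 0.06. Denn2b, a gene of the DENN family of Rab activators, was at 0.16 ± 0.05.

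Of the ubiquitin ligase genes, Rnf31, the catalytic HOIP subunit of the linear ubiquitin assembly complex, was at 0.38 ± 0.11 (SE, n = 4), with animal 2 at 0.84 and the others from 0.15 to 0.34. Mkrn1 was at 0.35 ± 0.11, with animal 3 at 0.79 and the others from 0.11 to 0.27, and its 3 probes ran from −0.07 to 1.12. Rnf114 was at 0.14 ± 0.05. Llgl1, a regulator of epithelial polarity, was small but the most even gene of the set at 0.15 ± 0.04, with animals at 0.14, 0.14, 0.16 and 0.15. Atp5c1, the gamma subunit of the mitochondrial ATP synthase, was at 0.16 ± 0.05, and the kinase Ptk2b at 0.16 ± 0.05. Lrrc29 was at 0.30 ± 0.08, Ammecr1 at 0.23 ± 0.06, Ccdc106 at 0.19 ± 0.08 and Ceacam2, an adhesion molecule gene, at 0.16 ± 0.04.

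**Figure D2:**
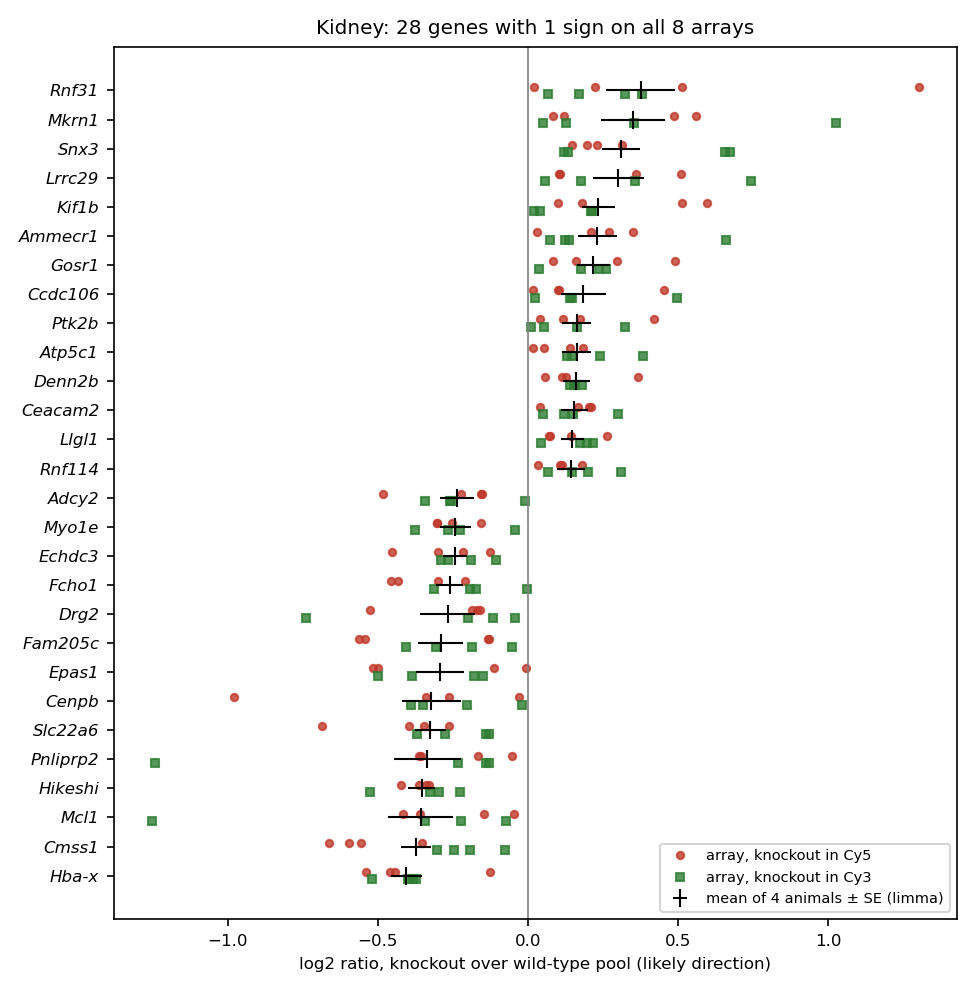
Log2 ratio (horizontal axis) of the 14 higher and 14 lower genes with the same sign on all 8 kidney arrays (vertical axis). Red circles are the 4 arrays with the knockout in Cy5, green squares the 4 with the knockout in Cy3, and the black tick with its bar is the mean of the 4 animals ± SE; most means lie within 0.4 of 0, and single arrays of Rnf31, Mkrn1, Mcl1 and Pnliprp2 stand far from the rest.

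The SLC22 transporters move organic anions, urate, cations and carnitine across the tubule cell. Slc22a6 encodes OAT1, which takes up organic anions from blood at the basolateral membrane, and Slc22a8 encodes OAT3, its neighbour on the chromosome with a similar task. Slc22a7 encodes OAT2, and Slc22a12 encodes URAT1, the urate exchanger of the brush border. Several genes of this family are known to be transcribed under HNF1 factors, whose palindromic site contains the letters GTTAAT. The 150 bases before the start of 3 of these genes, from RefSeq (GRCm38.p6), are shown to place these letters, which are in capitals.
Slc22a6, chr19:8617846-8617995, plus strand: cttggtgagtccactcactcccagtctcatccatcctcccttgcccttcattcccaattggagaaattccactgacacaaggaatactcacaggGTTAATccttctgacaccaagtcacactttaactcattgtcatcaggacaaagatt
Slc22a8, chr19:8593032-8593181, plus strand: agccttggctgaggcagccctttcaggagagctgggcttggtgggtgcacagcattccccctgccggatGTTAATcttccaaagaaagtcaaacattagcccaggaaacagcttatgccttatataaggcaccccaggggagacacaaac
Slc22a12, chr19:6543071-6543220, minus strand: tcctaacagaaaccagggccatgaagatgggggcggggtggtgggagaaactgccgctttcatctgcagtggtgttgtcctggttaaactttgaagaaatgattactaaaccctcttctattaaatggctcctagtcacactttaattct
Searched on both strands, GTTAAT was found 1 time in the Slc22a6 window, from position −56, 1 time in the Slc22a8 window, from position −81, and 0 times in the Slc22a12 window. Of all 32851 windows of this length, 3.71% hold it.

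Slc22a6 was at −0.33 ± 0.05 (SE, n = 4; limma, adjusted p = 0.348), with animals at −0.48, −0.24, −0.32 and −0.26. All 8 arrays lay below 0, at −0.42 on average in Cy5 and −0.23 in Cy3, and with the Cy3 arrays turned the mean was −0.098. Slc22a7 was at −0.17 ± 0.04 (limma, adjusted p = 0.475), with animals at −0.17, −0.19, −0.20 and −0.11, and also below 0 on all 8 arrays. Slc22a12 was at −0.16 ± 0.04 (limma, adjusted p = 0.475), with animals at −0.24, −0.13, −0.10 and −0.17, and 1 array above 0. In these 3 genes, and in Slc22a8, every animal lay below the pool, but none passed adjustment.

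The rest of the family, given here after its values were seen, lay closer to 0. Slc22a8 was at −0.06 ± 0.04, with all 4 animals below 0, between −0.15 and −0.0020. Slc22a13 was at −0.05 ± 0.05, and the carnitine transporter Slc22a5 was at −0.02 ± 0.07. The cation transporter Slc22a2 and the Slc22a18 gene were at −0.0036 ± 0.06 and −0.0034 ± 0.05. Slc22a21 was at 0.04 ± 0.09 and Slc22a17, a receptor for lipocalin 2, at 0.11 ± 0.09, with animal 2 at 0.49 and the others from −0.05 to 0.01. So 7 of the 10 measured members had a mean within 0.11 of 0, the difference between Slc22a6 and the others was not tested, and cDNA probes of related transporters may share sequence.

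**Figure D3:**
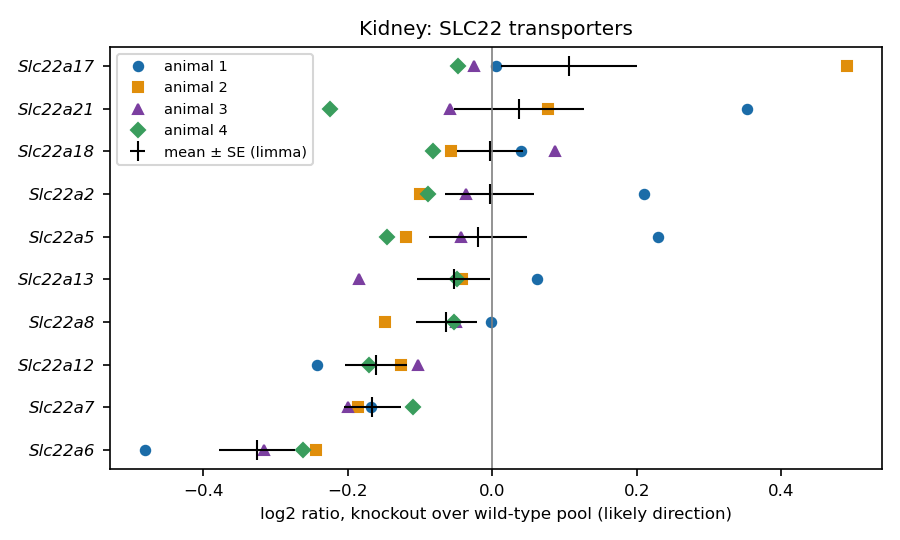
Log2 ratio (horizontal axis) of the 10 measured SLC22 genes (vertical axis) in each of the 4 kidneys, with the mean ± SE in black. All 4 animals lie below 0 for Slc22a6, Slc22a7, Slc22a12 and, closer to 0, Slc22a8, and on both sides of 0 for Slc22a13, Slc22a5, Slc22a2, Slc22a18, Slc22a21 and Slc22a17.

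Over the whole list of organic ion and drug transporters, 27 members were tested, of which 12 lay above 0 and 15 below. One was at an unadjusted p under 0.05 on the higher side and 3 on the lower, against 4.33% and 5.11% of all genes, and the median was −0.00. Of the 15 proximal tubule markers, 5 lay above 0 and 10 below, with a median of −0.02 and 2 on the lower side at an unadjusted p under 0.05. These were Slc22a6 and Slc13a3, a dicarboxylate transporter that supplies the exchange substrate of OAT1, at −0.15 ± 0.06. Slc34a1, the sodium-phosphate transporter of the brush border, was the highest at 0.10 ± 0.06. The proximal tubule markers lay on both sides of 0.

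Markers of the other nephron segments were also close to 0. Of the 7 tested genes of the thick ascending limb, Egf, the epidermal growth factor gene, was at 0.12 ± 0.04 and Ppp1r1a, a phosphatase inhibitor, at 0.16 ± 0.05, while Umod, the defining gene of this segment, was at −0.03 ± 0.05. Of the 9 genes of the distal convoluted and connecting tubule, the kinase Wnk4 was at 0.12 ± 0.04, the exchanger Slc8a1 at 0.12 ± 0.05 and the kallikrein gene Klk1 at −0.15 ± 0.05. With the signs as deposited, principal cell genes had the highest median of all 32 lists, at 0.08, with 5 of 6 members above 0; with the Cy3 arrays turned their median was 0.035, the 8th highest, and Fxyd4 was at −0.21. Fxyd4, a modulator of the sodium pump, led them as deposited at 0.41 ± 0.17, with animals at 0.27, −0.12, 0.42 and 1.07, the water channel Aqp2 was at 0.14 ± 0.07, with animals from −0.07 to 0.35, and the transcription factor Gata3 was at 0.13 ± 0.06. Of the 10 intercalated cell genes, Rhcg, an ammonia channel, was at −0.14 ± 0.04 and Slc26a4, pendrin, at −0.16 ± 0.06, whereas the proton pump subunit Atp6v1g3 was at 0.11 ± 0.05. Podocyte genes had 0 of 6 members at an unadjusted p under 0.05; Podxl was at −0.13 ± 0.06, Clic5 at 0.02 ± 0.06 and Wt1 at −0.01 ± 0.06.

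Markers of vessels, blood and tissues next to the kidney were examined in the same way. Of 15 endothelial genes, 5 lay above 0, with a median of −0.01. Egfl7, secreted by endothelium, was at −0.20 ± 0.05 and below 0 on all 8 arrays, as was the receptor Tie1 at −0.07 ± 0.04, while Plvap was at 0.06 ± 0.04. The 5 smooth muscle and pericyte genes had a median of −0.03, with Rgs5 at −0.04 ± 0.06, Cspg4 at −0.04 ± 0.06 and Pdgfrb at −0.03 ± 0.05. Of 18 macrophage and lymphocyte genes 12 lay above 0, with a median of 0.03 and none at an unadjusted p under 0.05; C1qc was at 0.08 ± 0.04, Cd3g at −0.09 ± 0.04 and Ms4a1 at 0.06 ± 0.05. The 5 erythroid genes had a median of −0.02, with Gata1 at 0.06 ± 0.07. Adrenal genes, which would mark a piece of the gland above the kidney, had 5 of 8 members above 0 and a median of 0.03; Chgb was at 0.10 ± 0.07, Dbh at 0.09 ± 0.05 and Nr5a1 at 0.06 ± 0.04. Adipose genes had 9 of 12 members above 0, with a median of 0.04. Their leading members did not go together: Cidea was at −0.32 ± 0.07, Ucp1 at 0.12 ± 0.04 and Lpl at 0.10 ± 0.05.

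The other NADPH oxidase genes are the nearest relatives and partners of the deleted gene. Of 8 measured, 3 lay above 0 and the median was −0.02. Rac2, the small GTPase of the phagocyte oxidase, was the only one at an unadjusted p under 0.05. It was at −0.36 ± 0.10 (SE, n = 4; limma, adjusted p = 0.475), with animals at −0.23, −0.07, −0.70 and −0.45, and 7 of 8 arrays below 0. Noxa1, the activator of NOX1, was at 0.50 ± 0.22 (limma, adjusted p = 0.535), with animals at 0.34, −0.30, 0.79 and 1.19. Its mean was −0.09 on the Cy5 arrays and 1.10 on the Cy3 arrays, so the sign of the mean differed between the dyes. In animals 1 and 2 the sign followed the dye, and in animals 3 and 4 both arrays lay above 0.

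Cyba, the membrane partner of NOX4, was at −0.06 ± 0.05 (SE, n = 4), with animals at −0.17, −0.04, 0.04 and −0.07. Cybb, which encodes the catalytic core of the phagocyte oxidase, was at 0.04 ± 0.05, with animal 1 at −0.12 and the others from 0.09 to 0.10. Poldip2, described as an activator of NOX4, was at −0.03 ± 0.04, Noxo1 at −0.06 ± 0.05, Ncf4 at −0.01 ± 0.06 and Rac1 at 0.01 ± 0.04. The animals of Rac1 lay between −0.02 and 0.02.

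Peroxide-handling and NRF2 target genes were divided. Of 39 tested, 18 lay above 0, the median was −0.01, and 4 were higher and 2 lower at an unadjusted p under 0.05. Their means ran from −0.23 to 0.22. Prdx1, a peroxiredoxin of the cytosol, was at −0.23 ± 0.05 (SE, n = 4; limma, adjusted p = 0.459), with animals at −0.23, −0.11, −0.23 and −0.34. It averaged −0.38 on the Cy5 arrays and −0.08 on the Cy3 arrays. Sod3, the extracellular superoxide dismutase, was at 0.16 ± 0.04, with animals from 0.09 to 0.22. Gstm2, a glutathione transferase gene, was at 0.12 ± 0.04 and above 0 on all 8 arrays. Of the 17 peroxide-sensitive phosphatase genes, none was at an unadjusted p under 0.05; Dusp1 was at −0.09 ± 0.05, Ppp3cb at 0.10 ± 0.05 and Ptpn6 at 0.05 ± 0.04.

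Hypoxia and glycolysis genes included some of the lower values. HIF factors bind DNA at sites with the core ACGTG. The 150 bases before the first of the 2 starts of Ldha in RefSeq are shown with these letters, on either strand, in capitals; Ldha makes the lactate dehydrogenase subunit of glycolytic tissue and is a well-known HIF target.
Ldha, chr7:46845654-46845803, plus strand: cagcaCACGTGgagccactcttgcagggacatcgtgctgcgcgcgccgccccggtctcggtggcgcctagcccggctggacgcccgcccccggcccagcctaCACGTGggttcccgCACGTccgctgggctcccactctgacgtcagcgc
ACGTG was found 5 times, between positions −145 and −34, and 4 of these are pairs that overlap on the strands of the palindrome CACGTG. Of all windows of this length 11.2% hold ACGTG.

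Ldha was at −0.37 ± 0.09 (SE, n = 4; limma, adjusted p = 0.475), with animals at −0.62, −0.08, −0.25 and −0.54 and 7 of 8 arrays below 0. Animals 1 and 4 were the lowest for Ldha and for Epas1. The same animals were the lowest for other named genes too, among them Cenpb, Bhlhe41, Rps20 and Zfp36. A link between Ldha and Epas1 was not tested. Ldhb, the subunit of oxidative tissue, was at −0.16 ± 0.05, Pfkl, a phosphofructokinase, at −0.12 ± 0.04, and Hk1, a hexokinase, at 0.15 ± 0.06, with animal 2 at −0.03. Of 21 glycolysis and gluconeogenesis genes, 8 lay above 0, the median was −0.03, and 2 were higher and 3 lower at an unadjusted p under 0.05. Of 18 hypoxia genes, 10 lay above 0, and the median was 0.00. They ran from −0.47 to 0.15, so Ldha was not the lowest of them.

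The list of chaperones and unfolded protein response genes had 9 of 29 members above 0 and a median of −0.03, against 51.5% above 0 over all genes. At an unadjusted p under 0.05, 1 was higher and 3 lower. The lower ones were Hikeshi, Dnajb1, an HSP40 co-chaperone, at −0.23 ± 0.05, and Xbp1, the transcription factor of the unfolded protein response, at −0.16 ± 0.05. The animals of Dnajb1 were at −0.21, −0.23, −0.13 and −0.34. Immediate early genes, which rise within minutes of stress or handling, had 5 of 17 above 0, with Junb at −0.15 ± 0.04, Zfp36 at −0.17 ± 0.07 and Ier2 at 0.11 ± 0.04.

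Genes of injury, fibrosis and immunity had medians between −0.01 and 0.03. Of 19 injury and inflammation genes, Clu, clusterin, was at −0.14 ± 0.05, with animal 3 at −0.31, the fibrinogen chain Fgg at 0.14 ± 0.05, and Il6 at 0.07 ± 0.04. Of 41 matrix and TGF-beta genes 22 lay above 0, with a median of 0.00. Col6a1 and Col6a2, chains of type VI collagen, were at −0.12 ± 0.05 and −0.17 ± 0.04, and the animals of Col6a2 were between −0.19 and −0.14. Adamts5, a protease of matrix proteoglycans, was at 0.18 ± 0.04, with animals from 0.13 to 0.26. Of the 12 interferon, complement and antigen presentation genes, Tap1, a peptide transporter, was at −0.19 ± 0.05, the complement factor gene Cfb at 0.14 ± 0.04 and H2-K1 at 0.07 ± 0.04.

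Signalling and hormone lists held 1 of the more even values. Lepr, the leptin receptor gene, was at 0.27 ± 0.04 (SE, n = 4; limma, adjusted p = 0.348), with animals at 0.33, 0.29, 0.19 and 0.26 and 7 of 8 arrays above 0. In its list of 24 leptin, insulin and mTOR genes 18 lay above 0, with a median of 0.01; Pik3ca, a catalytic subunit of PI3 kinase, was at −0.12 ± 0.05 and Igfbp3 at −0.17 ± 0.08. Renin-angiotensin and kinin genes had 2 of 5 members above 0, with Ace at 0.03 ± 0.04 and Mme at −0.04 ± 0.04. Of 10 androgen-dependent and sex-biased kidney genes, Slc22a7 and Slc22a12 were the 2 at an unadjusted p under 0.05, and Gusb was at 0.10 ± 0.07. Of 17 calcium and phosphate genes 10 lay above 0; besides Pln and Slc8a1, the calcium pump gene Atp2b2 was at 0.13 ± 0.04. Of 14 clock genes, Bhlhe41, a repressor of the clock, was at −0.19 ± 0.05 and below 0 on all 8 arrays, whereas Nr1d1 and Nr1d2 were at −0.08 ± 0.06 and −0.10 ± 0.05.

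Metabolic and housekeeping lists had medians within 0.03 of 0. Of 63 oxidative phosphorylation genes 37 lay above 0, with a median of 0.02 and 4 higher and 1 lower at an unadjusted p under 0.05; Ndufa13 was at 0.28 ± 0.08 and Ndufa2 at 0.12 ± 0.05. Of 56 cytosolic ribosomal protein genes 31 lay above 0, with a median of 0.01 and means from −0.19 to 0.64. Rpl37a was at −0.19 ± 0.04, Rps20 at −0.17 ± 0.05 and below 0 on all 8 arrays, and Rps15 at 0.15 ± 0.04. Of 24 genes of fatty acid oxidation and peroxisomes, Acadl, an acyl-CoA dehydrogenase, was at 0.13 ± 0.05, Acaa2, a thiolase, at −0.16 ± 0.05 and Fabp1, a fatty acid binding protein, at −0.14 ± 0.05. Of 25 cytochrome P450 genes, Cyp2b10 was at −0.12 ± 0.04 and below 0 on all 8 arrays, Cyp4f13 at −0.18 ± 0.06 and Cyp4f14 at 0.13 ± 0.05. Over all 32 lists, 16 medians lay above 0, medians ran from −0.04 to 0.08, and 0 of 577 distinct members were called.

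**Figure D4:**
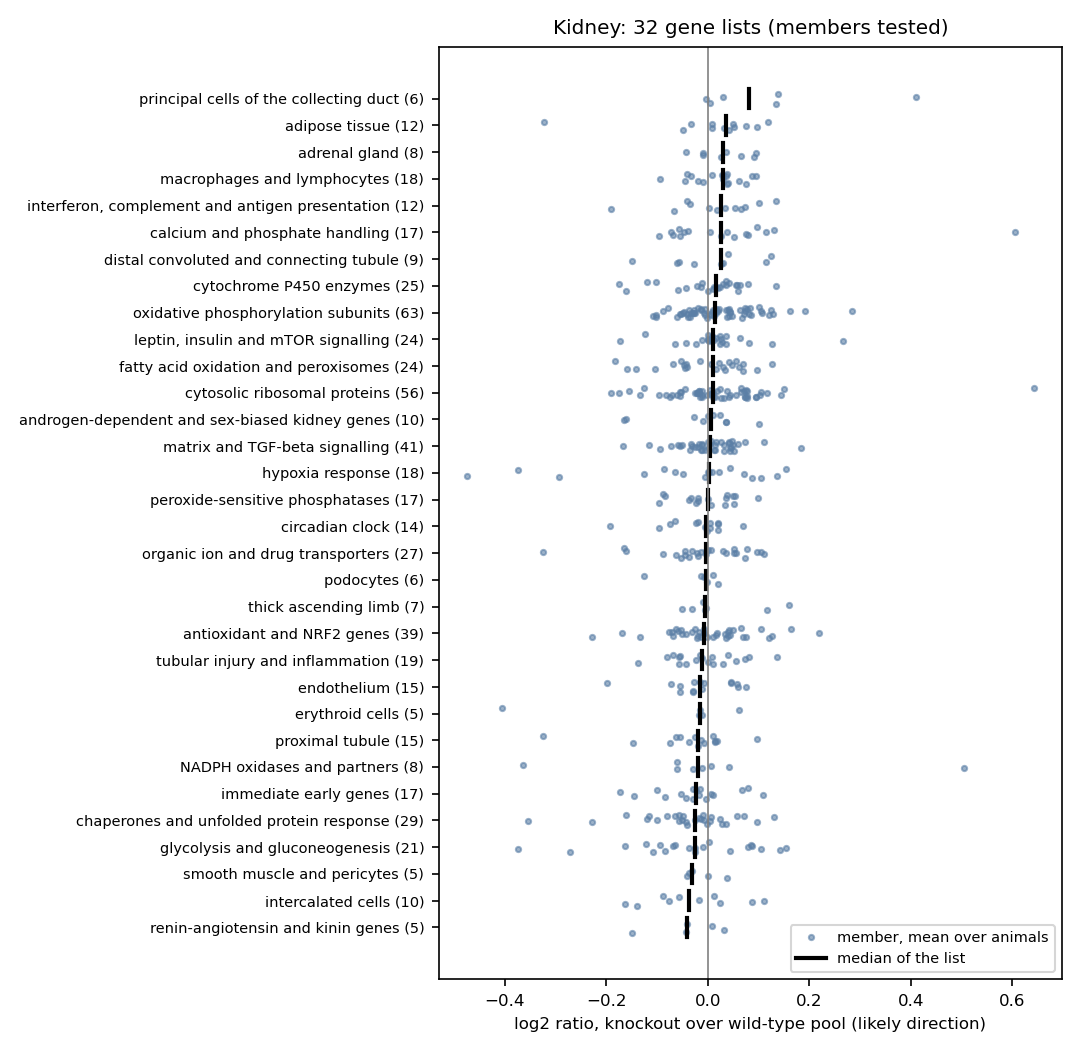
Mean log2 ratio over the animals (horizontal axis) of every tested member of the 32 gene lists (vertical axis, number of members tested in brackets), with the median of each list as a black bar. Medians run from −0.04 for renin-angiotensin and kinin genes to 0.08 for principal cells, and each list holds members on both sides of 0.

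The same animals' brain, muscle and pancreas show where the kidney ratios differ. The difference in log2 ratio between kidney and another tissue is not a difference in transcript level, since no array compared tissues. Limma called 0 of 16654 genes between kidney and brain (0%), with 1298 at an unadjusted p under 0.05 (7.79%). It called 0 of 16583 between kidney and muscle (0%), with 1539 (9.28%), and 0 of 16264 between kidney and pancreas (0%), with 755 (4.64%). The smallest adjusted p values were 0.459, 0.220 and 0.608. Fitted with all 4 tissues the calls were 0, 3 and 0, and without animal 1 kidney and muscle had 9. The kidney genes named below were chosen for their kidney values, with earlier results of these data known. Which of them are shown across tissues was not fixed by a rule, so all values here are descriptions. Genes chosen as low in kidney are apt to lie below tissues that are near 0. The share of all genes whose animals do not overlap between tissues was not computed.

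Hikeshi was at 0.05 in brain, 0.07 in muscle and 0.02 in pancreas, with animals on both sides of 0 in each. The kidney animals of Hikeshi lay below all animals of brain and muscle, and within the pancreas range, since pancreas animal 3 was at −0.49. Kidney minus brain was −0.40 ± 0.07 (limma, adjusted p = 0.468). Cmss1 was at 0.11 in brain, 0.00 in muscle and 0.05 in pancreas, and its kidney animals lay below those of all 3 tissues, with differences of −0.49 ± 0.12, −0.37 ± 0.07 and −0.42 ± 0.08. Hba-x was at 0.06, −0.02 and −0.02, with a kidney minus brain difference of −0.46 ± 0.08, and its kidney animals overlapped only those of muscle.

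Slc22a6 was at 0.14 in brain, 0.04 in muscle and 0.09 in pancreas, and its kidney animals lay below all animals of these tissues. The differences were −0.46 ± 0.08, −0.37 ± 0.11 and −0.41 ± 0.12. Epas1 was at 0.24 in muscle, with 4 of 4 animals above 0, and at −0.16 in brain, where its range overlapped that of kidney. Ldha was at 0.11 in brain, with animals from 0.01 to 0.21 that do not overlap the kidney, and at 0.08 and −0.02 in muscle and pancreas, where the ranges overlap.

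Rac2, Lepr and Noxa1 differed in where else their sign was found. Rac2 was at −0.36 in muscle as in kidney, with muscle animals from −0.44 to −0.19, and kidney minus muscle was −0.00 ± 0.13. Lepr was at 0.29 in brain and 0.49 in pancreas, with ranges that overlap the kidney, and at −0.24 in muscle, where kidney minus muscle was 0.51 ± 0.13 (limma, adjusted p = 0.343). Noxa1 was at −0.04 in brain, −0.47 in muscle and −0.46 in pancreas, on the other side of 0 from kidney, with overlapping animals. Stk32b was measured in too few animals of the other tissues for a difference.

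**Figure D5:**
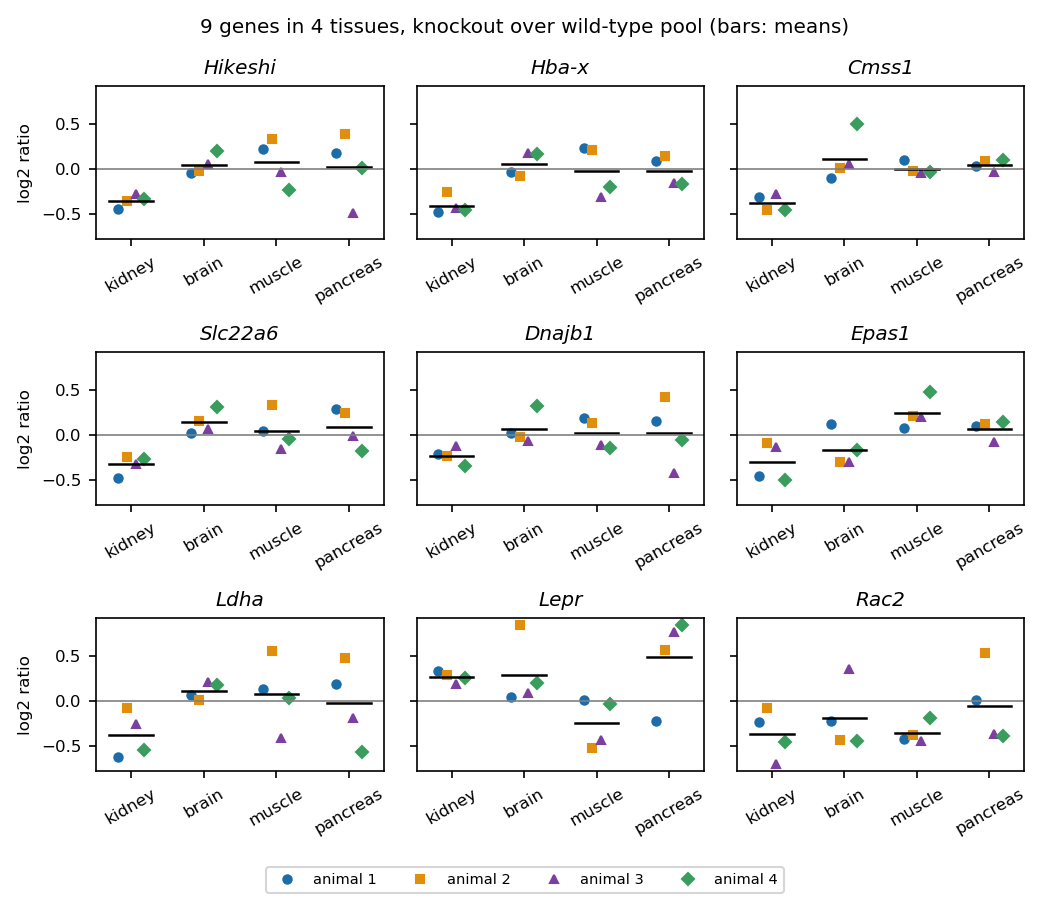
Log2 ratio (vertical axis) of 9 genes in kidney, brain, muscle and pancreas (horizontal axis) of the same 4 knockout animals, each with its own symbol, and the mean of each tissue as a bar. Hikeshi, Hba-x, Cmss1, Slc22a6, Dnajb1, Epas1 and Ldha have their lowest means in kidney, and Rac2 is as low in muscle as in kidney. The genes were chosen for their kidney values, so a low mean there is no evidence of a difference between tissues.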

How the data were processed

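The authors deposited 1 table of log2 ratios per probe and array; the sources used here give neither scanner nor background correction, normalisation or filters, and the largest values point to base 2 of the logarithm. The files name no build. A probe annotation table gave 12771 of 20794 probes 1 symbol, 0 several and 8023 none; all 9030 symbols are in the RefSeq gene table (GRCm38.p6). Probes of 1 symbol were averaged, and probes without a symbol were kept as units of their own, unnamed and counted as genes. Values beyond 8 in size were taken as missing, and both arrays of an animal were required. Limma 3.58.1 (R 4.3.3; lmFit, eBayes) tested the mean over at least 3 animals against 0, two-sided, with Benjamini-Hochberg adjustment over all units; it was tested on simulated data. SE is limma's moderated error. The SEs leave out the spread between wild-type animals. Between tissues, limma fitted the 2 tissues compared. The number of animals and the single pool limit the precision.

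The genes and the 32 gene lists were chosen with earlier results of these data known. Named were the called genes, the 14 highest and 14 lowest genes of those with 1 sign on all 8 arrays, the 3 members of smallest p in each list, and the NADPH oxidase genes. The rest of the SLC22 family, Hba-a1, Acrv1, Dtx1, Sertad1, Arnt2 and the genes near Nox4 were chosen after their values were seen. The 4 animals are paired across tissues because the labels give the same 4 mouse identities in each tissue; their deviations from the tissue means correlated at r from −0.10 to 0.12. Alternatives were other rules for missing values, probes and arrays, centring and scaling, turned signs of the Cy3 arrays, a dye term over single arrays, robust moderation, other tissues in the fit, the animal as a block and each animal left out. Promoter letters came from RefSeq (GRCm38.p6); 4 windows are printed, of 32851.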

Additional observations from a re-analysis of the deposited data

Results flagged for a closer look

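In 13 of the 159 sets of 4 animals examined, 1 animal stood far from the others; chance alone marks about 1 set in 20. For Sertad1, animal 1 was at −2.44 and the others between −0.53 and −0.17. Animal 1 was also lowest for Drg2 (−0.63, the others between −0.19 and −0.11), Pnliprp2 (−0.80, the others between −0.24 and −0.14) and Cybb (−0.12, the others between 0.09 and 0.10), and for the median of the intercalated cell genes (−0.10, the others between −0.02 and −0.01). Animal 2 stood apart for Mcl1 (−0.81, the others between −0.24 and −0.18), Slc22a17 (0.49, the others between −0.05 and 0.01), Hk1 (−0.028, the others between 0.20 and 0.24) and Wnk4 (0.048, the others between 0.14 and 0.16). Animal 3 was lowest for Clu, at −0.31 against −0.10 to −0.07. Animal 4 was lowest for Podxl (−0.34, the others between −0.06 and −0.05), for C1qc (−0.030, the others between 0.10 and 0.12) and for the median of the distal convoluted and connecting tubule genes (−0.083, the others between 0.02 and 0.04). The single arrays of animals 1 and 2 had the widest values, with interquartile ranges between 0.281 and 0.495, against 0.167 to 0.219 in animals 3 and 4. With the arrays of an animal averaged, as in the values above, the ranges across genes were 0.2145, 0.145, 0.153 and 0.1145 in animals 1 to 4. So animal 1 was the widest and animal 2 was not wider than animal 3. The part of this spread in the values above was not tested.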

How the results depend on the processing

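The 1 call in kidney, Stk32b, was also made with probes tested singly, centred arrays and robust moderation. The count was 0 with values beyond 8 kept, with 1 array of an animal enough, with all 4 animals required, with scaled arrays, with either dye orientation alone and with all 4 tissues in the fit, and 0 to 1 with each animal left out. Animal 3 has 1 of its 2 arrays for Stk32b and drops out where both are required, so this gene is untested where all 4 animals are required or another animal is left out. A fit of the 8 single arrays with a dye term gave 8 calls: Cmss1, Hba-x, Hikeshi and 5 probes without a symbol; it took the arrays of an animal as correlated at −0.286, and without that correlation, an alternative chosen after seeing the data, the count was 0. With the Cy3 arrays turned the 1 call was a probe without a symbol, and Stk32b was at 0.67 (limma, adjusted p = 0.372). The animal as a replicate block left 0 calls between kidney and brain, muscle or pancreas, and 0 without the block over the same genes. Kidney minus muscle had 3 calls with all 4 tissues in the fit and 0 to 9 with each animal left out, 9 without animal 1. Between 13 and 18 of the 32 list medians lay above 0.

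Turning the Cy3 arrays reversed the sign of 55 of 129 named genes, to these values: Acadl −0.090, Adamts5 −0.034, Ammecr1 −0.017, Atp5c1 −0.063, Bhlhe41 0.0056, C1qc −0.00238, Ccdc106 −0.017, Cidea 0.016, Clic5 −0.12, Col6a1 0.16, Cyba 0.23, Cyp4f13 0.33, Cyp4f14 −0.052, Drg2 0.0077, Egfl7 0.096, Epas1 0.0097, Fabp1 0.23, Fgg −0.18, Fxyd4 −0.21, Gstm2 −0.0092, Gusb −0.11, Hba-x 0.014, Ier2 −0.071, Igfbp3 0.33, Junb 0.031, Ldha 0.17, Lepr −0.11, Llgl1 −0.010, Lpl −0.059, Lrrc29 −0.031, Mcl1 0.11, Mkrn1 −0.038, Ndufa2 −0.16, Noxa1 −0.60, Noxo1 0.083, Nr1d2 0.11, Nr5a1 −0.14, Pdgfrb 0.18, Pik3ca 0.11, Pnliprp2 0.10, Podxl 0.013, Ppp3cb −0.12, Rgs5 0.36, Rhcg 0.11, Rnf114 −0.037, Rpl37a 0.053, Rps15 −0.0098, Slc13a3 0.17, Slc22a7 0.077, Slc26a4 0.047, Slc8a1 −0.064, Snx3 −0.087, Sod3 −0.028, Wnk4 −0.20 and Zfp36 0.25. Of the 74 that kept their sign, 37 were at under 50% of their size, among them Hikeshi −0.0097, Slc22a6 −0.098, Cmss1 −0.17, Rac2 −0.035, Echdc3 −0.030, Pln 0.098, Sertad1 −0.11 and Dtx1 0.31. Leaving out an animal reversed 16 genes close to 0, over these ranges: Clic5 −0.036 to 0.061, Cspg4 −0.096 to 0.0018, Gata1 −0.014 to 0.11, Hba-a1 −0.038 to 0.0039, Ncf4 −0.061 to 0.037, Pdgfrb −0.059 to 0.0097, Poldip2 −0.045 to 0.0011, Rac1 −0.000417 to 0.014, Rgs5 −0.091 to 0.025, Slc22a17 −0.023 to 0.16, Slc22a18 −0.033 to 0.023, Slc22a2 −0.075 to 0.029, Slc22a21 −0.069 to 0.12, Slc22a5 −0.10 to 0.022, Umod −0.070 to 0.014 and Wt1 −0.069 to 0.037. The cause was not tested. Whether the Cy3 ratios had already been turned is not given in the sources used here. Signal over background was not used here, so dim probes could not be told from bright ones.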
